A study of Mus musculus with 7 samples.

Results

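The genes described here are 10 transcription factors that set the fate of CD8 T cells: Tcf7, Lef1, Tbx21, Eomes, Tox, Runx3, Bcl11b, Satb1, Bach2 and Zeb2. They were chosen by name, and all 10 were found among the 56422 gene symbols of the table. Their messenger RNA was measured in 7 mouse libraries that the labels call CD8+ T cells, taken from ascites, the fluid of the abdominal cavity, in models of peritoneal metastasis. The treated group holds 3 libraries whose treatment is propionate together with butyrate, short-chain fatty acids that gut bacteria make, and the control group holds 4 libraries whose treatment is none. The strain, age, tumour line, dose and duration are not given in the sources used here. Nothing in the labels says that the libraries came from separate animals, so the spread behind each p-value is that between these libraries and may be only technical. One treated column of the table carries a number that no treated sample has, and it is called the third treated library.

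CD8 T cells leave the thymus as naive cells and, once activated, become short-lived killers, long-lived memory cells or, under lasting antigen, exhausted cells. TCF-1 and LEF-1, products of Tcf7 and Lef1, are HMG-box proteins that bind the same DNA letters and keep cells naive, memory-like or stem-like. T-bet and EOMES, products of Tbx21 and Eomes, are T-box proteins that drive the killer programme, ZEB2 acts below T-bet in terminal effector cells, and TOX sustains the exhausted state. BCL11B, SATB1, RUNX3 and BACH2 hold T cell identity, chromatin order, the CD8 lineage and the restraint of effector genes.

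Expression was deposited as TPM, a length-corrected share of each library's transcripts that adds up to 1 fixed total, and sequencing depth cannot be read from it. Libraries labelled as CD8+ T cells held Cd8a at 112.74, 242.23 and 54.25 TPM in the treated group, against 15.63, 14.82, 7.95 and 17.98 TPM in the control group. Summed TPM of 17 T cell identity genes ran from 717 to 3039 in treated libraries and from 146 to 257 in control libraries. The 14 macrophage markers summed to 3418 to 4192 TPM in treated and 6211 to 15106 TPM in control libraries, and the 13 markers of epithelium and mesothelium to 874 to 1660 TPM in treated and 2320 to 2787 TPM in control libraries. Most of the macrophage sum was Apoe and Lyz2. Apoe had 1417 to 2316 TPM in treated and 3741 to 8468 TPM in control libraries, and Lyz2 1065 to 1656 TPM and 1431 to 4112 TPM. Every library thus carried RNA of other cells, and T cell transcripts were a small part of the control libraries. Control replicate 3 stood apart with the highest macrophage sum, and the third treated library with 32.87% of TPM in mitochondrially encoded genes, against at most 18.23% in the other 6.

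Most of the factors, those of naive and memory cells as well as those of effector and exhausted cells, were several-fold higher in treated libraries, and Zeb2 was not. In the comparison of log2(TPM + 1) by limma with Benjamini-Hochberg adjustment over all 14967 genes that passed the filter (1 TPM or more in 3 or more of the 7 libraries), 8 of the 10 factors were called higher at an adjusted p under 0.05 and 0 were called lower. Of all tested genes, 4.3% were called higher and 7.59% lower. At an unadjusted p under 0.05, 9 factors were higher and 0 lower, beside 6.87% of all tested genes higher and 23.6% lower. The factors had a median log2 fold change of 2.23, beside a median of -0.24 over all tested genes. All 10 passed the filter, but Bcl11b did so only through the treated group, where it was high. It thus had to differ, and its call supports nothing. Without Bcl11b, 7 factors were called higher. Tbx21, among these 7, reached 1 TPM in no control library but control replicate 4 (1.07 TPM). It also needed treated libraries to pass, and its call is not used as support. Bach2, which was not called, reached 1 TPM only in control replicates 3 and 4 (1.04 and 2.1 TPM) and needed treated libraries too. The median of 2.23 includes Bcl11b, Tbx21 and Bach2, so it is a description and not support. Of all tested genes, 106 had, like Bcl11b, no control library at 1 TPM, and 90 of these were called higher. In bulk RNA, fewer CD8 T cells in a sample and less of a factor's RNA in each cell cannot be told apart, and the T cell identity genes moved with these factors, all 17 of 17 being called higher with a median of 2.84. Markers of CD4 and regulatory T cells, which use several of these factors too, summed to 6.57 to 9.26 TPM in treated and 2.9 to 5.58 TPM in control libraries, with 0 of 2 tested called by limma and 1 higher at an unadjusted p under 0.05, and their part in the fold changes was not tested. All 8 calls were lost when no filter on low values was used, with limma adjusted p from 0.0681 for Eomes to 0.0882 for Tcf7.

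**Figure D1:**
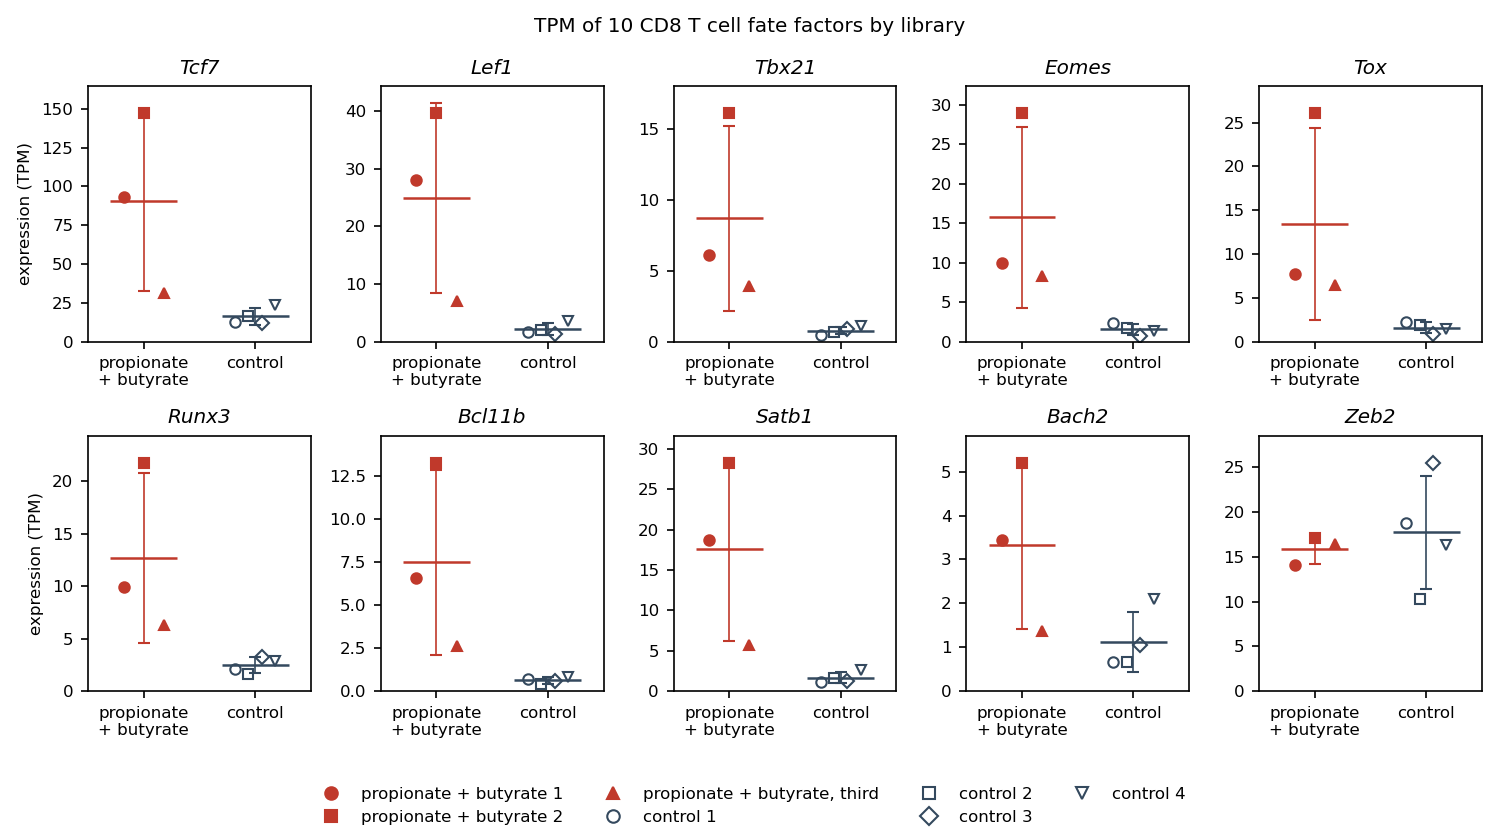
Expression of the 10 factors in TPM (vertical axis, from 0) in each library, with the 3 propionate and butyrate libraries as filled red symbols and the 4 control libraries as open symbols. Horizontal lines are group means and bars are 1 SD. Treated libraries lie above control libraries for 8 factors, with treated replicate 2 the highest, and the groups overlap for Bach2 and Zeb2. Of all tested genes, 4.82% were higher without overlap. Bcl11b and Tbx21, among the 8, needed treated libraries to pass the filter.

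Among the factors of naive and memory cells, Tcf7 was the most abundant of the 10 in treated libraries. Tcf7 had 93.39, 147.07 and 31.12 TPM in treated replicate 1, treated replicate 2 and the third treated library, against 12.86, 16.29, 11.78 and 23.64 TPM in control libraries 1 to 4, the order kept for all genes. The groups did not overlap, but the third treated library lay close above control replicate 4. Of all tested genes, 4.82% were higher without overlap. The log2 fold change was 2.21 (SE 0.39, limma adjusted p = 0.0027), and robust variance estimation ended this call (adjusted p = 0.0679). Lef1, the close relative of Tcf7, had 27.93, 39.57 and 7.01 TPM in treated libraries, against 1.6, 2, 1.29 and 3.63 TPM in control libraries. Its log2 fold change of 2.81 (SE 0.43, limma adjusted p = 0.00107) was the highest of the 10 in this comparison. The rank was not stable: Tcf7 was higher with a pseudocount of 5 (1.98 against 1.88). Without treated replicate 1, Eomes was higher (2.74 against 2.58). By the ratio of group means Bcl11b was higher (12.0 against 11.7). Satb1, which folds chromatin around T cell genes, had 18.72, 28.29 and 5.7 TPM in treated libraries, against 1.15, 1.6, 1.25 and 2.58 TPM in control libraries. Satb1 was higher by 2.60 (SE 0.39, limma adjusted p = 0.000933), again without overlap and with the third treated library nearest to the controls.

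Bach2, a repressor that restrains effector genes and is also a B cell factor, did not pass the threshold. It had 3.44, 5.2 and 1.37 TPM in treated libraries, against 0.67, 0.65, 1.04 and 2.1 TPM in control libraries. Control replicate 4 lay above the third treated library, so the groups overlapped. The log2 fold change was 0.98 (SE 0.33, 95% confidence interval 0.28 to 1.67, limma adjusted p = 0.0628). Leaving out control replicate 4 gave a called value of 1.18 (limma adjusted p = 0.0207), and leaving out the third treated library a called value of 1.36 (limma adjusted p = 0.0382). In control replicate 4, 0.86 of the 2.1 TPM came from 1 of the 7 transcript rows of Bach2, and that row was listed at 0 in the other 6 libraries. Summed markers of B cells were at 90.3 to 124 TPM in treated and 43.5 to 134 TPM in control libraries, with 0 of 10 called by limma and 1 of 10 higher at an unadjusted p under 0.05. That marker, Ebf1, passed the filter only through the treated group, so its p-value supports nothing. The part of B cells in the Bach2 value was not tested.

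The T-box factors were among the least abundant of the 10 in control libraries. Tbx21 had 6.09, 16.14 and 3.91 TPM in treated libraries, against 0.47, 0.66, 0.86 and 1.07 TPM in control libraries. Eomes, which memory, exhausted and natural killer cells also use, had 9.96, 28.9 and 8.3 TPM in treated libraries, against 2.34, 1.77, 0.74 and 1.39 TPM in control libraries. Every treated library lay above every control library for both genes, and treated replicate 2 stood far above the other treated libraries. Tbx21 was higher by 2.27 (SE 0.34, limma adjusted p = 0.000992) and Eomes by 2.54 (SE 0.36, limma adjusted p = 0.000633) on the log2(TPM + 1) scale. This scale understates changes of genes this low: the ratios of the group means were 11.4 and 10.1. The Tbx21 value is given as a description, since among the controls only control replicate 4 reached the 1 TPM of the filter. The natural killer markers Ncr1, Klrb1c, Klra8, Klra4 and Klra3 summed to 3.68 to 10.8 TPM in treated libraries. In control libraries they summed to 1.89 to 3.96 TPM, so the sums overlapped. None of these markers was at 0 in any library. Taken singly, Ncr1, Klrb1c and Klra8 were higher in every treated library than in every control library, where each was under 1 TPM. Klra4 and Klra3 overlapped between the groups. Only 1 of the 5, Klra3, passed the filter. Klra3 was not called by limma, but it was higher at an unadjusted p under 0.05. Among the controls it reached 1 TPM in control replicate 1 alone (1.75 TPM), so it needed treated libraries to pass. The part of natural killer cells in the Tbx21 and Eomes values was not tested.

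Tox, the factor of exhausted cells, had 7.67, 26.05 and 6.44 TPM in treated libraries, against 2.2, 1.91, 0.82 and 1.45 TPM in control libraries. The groups did not overlap, and Tox was higher by 2.25 (SE 0.37, limma adjusted p = 0.00184). One of its 4 transcript rows, at 0.54, 0.46 and 0.4 TPM in control replicates 1, 2 and 4, was listed at 0 in all 3 treated libraries and in control replicate 3. With the highest row of each gene alone the Tox value was 2.43 (limma adjusted p = 0.00301).

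Of the lineage factors, Bcl11b, which commits thymocytes to the T cell lineage, had 6.6, 13.27 and 2.61 TPM in treated libraries, against 0.71, 0.39, 0.56 and 0.83 TPM in control libraries. Runx3, which silences Cd4 in the CD8 lineage and which myeloid cells also express, had 9.92, 21.74 and 6.3 TPM in treated libraries, against 2.12, 1.58, 3.27 and 2.82 TPM in control libraries. The groups did not overlap for either gene. Runx3 was higher by 1.85 (SE 0.33, limma adjusted p = 0.00266). The value for Bcl11b was 2.18 (SE 0.36), given as a description, since no control library reached the 1 TPM of the filter. Runx3 was the least raised of the 8 in this comparison, but the rank was not stable. With a pseudocount of 5, Bcl11b (1.06) and Tbx21 (1.150) were lower than Runx3 (1.155). With the replicate block, Tox was lower (2.33 against 2.47). Control replicate 3, the library with the highest macrophage sum, held the highest control value of Runx3 and the lowest control value of Tcf7, Lef1, Eomes and Tox. Control replicate 4, with the lowest macrophage sum of the controls (6211 TPM), held the next highest control value of Runx3, at 2.82 TPM. That place by sum depends on the marker: control replicates 2 and 4 had 3895 and 3741 TPM of Apoe, but 1431 and 1501 TPM of Lyz2. The part of macrophages in the Runx3 value was not tested.

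Zeb2, a transcriptional repressor that acts in terminal effector cells and that macrophages and fibroblasts also express, was not called in either direction. It had 14.05, 17.15 and 16.42 TPM in treated libraries, against 18.78, 10.31, 25.5 and 16.36 TPM in control libraries. The treated values lay inside the control range, and the log2 fold change was -0.09 (SE 0.26, 95% confidence interval -0.64 to 0.46, limma adjusted p = 0.834). The sign turned with the processing: the value was 0.17 with median-of-ratios scaling, which moves the median of all genes from -0.24 to -0.00, and 0.10 without control replicate 3 (limma adjusted p of 0.702 and 0.846). Control replicate 3 had both the highest Zeb2 level and the highest macrophage sum, and control replicate 2 the lowest Zeb2 level, with a macrophage sum of 6257 TPM. Control replicate 4 had a lower macrophage sum (6211 TPM) with Zeb2 at 16.36 TPM. Treated libraries had the lowest macrophage sums (3418 to 4192 TPM) with Zeb2 at 14.05 to 17.15 TPM. Since Apoe and Lyz2 carried most of these sums, the order of libraries by sum does not hold for every marker. Adgre1, the 1 of the 14 with a higher mean in treated libraries, had 22.27, 21.9 and 36.21 TPM there. In control libraries it had 15.77, 21.68, 41.64 and 21.65 TPM. All 14 macrophage markers were measured, with 0 higher and 2 lower by limma, 5 being lower at an unadjusted p under 0.05. Fibroblast markers summed to 115 to 228 TPM in treated and 283 to 323 TPM in control libraries, and the part of either cell type in the Zeb2 level was not tested. The antisense gene Zeb2os had 4.88, 3.55 and 3.66 TPM in treated libraries, against 4.84, 4.55, 5.96 and 4.54 TPM in control libraries. The library kit marks strand, but nothing used here says that the counting kept to it, so reads of Zeb2 and Zeb2os may be mixed.

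**Figure D2:**
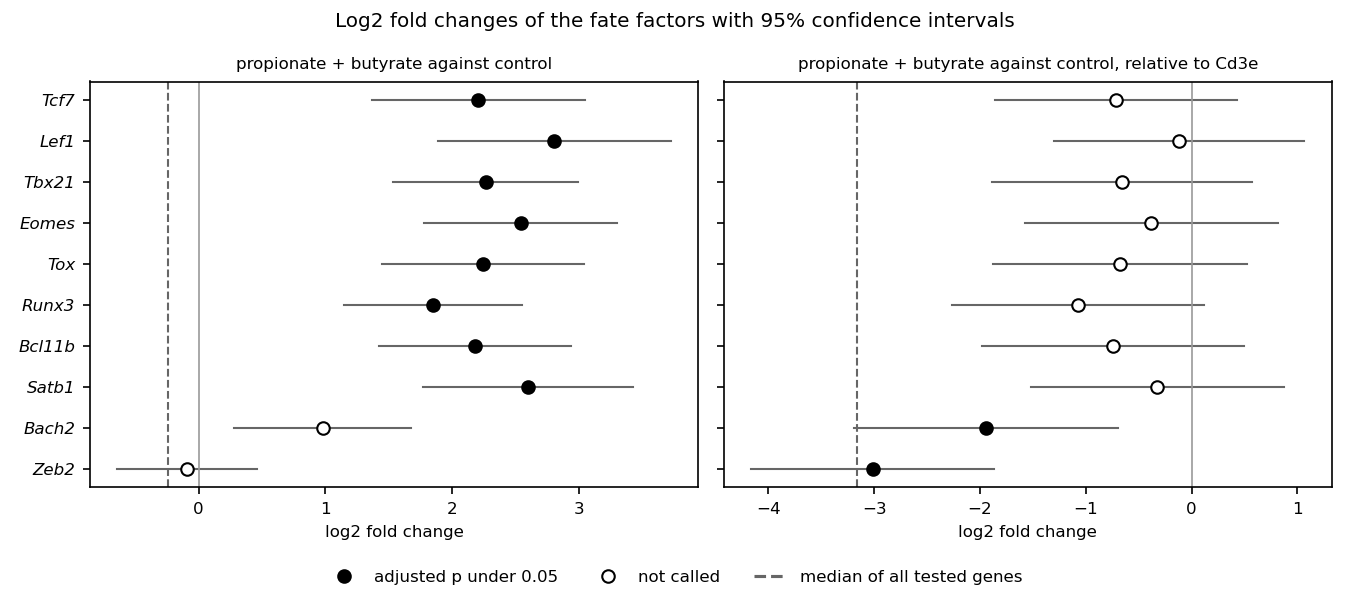
Log2 fold changes of the 10 factors, propionate and butyrate against control (left), and the same relative to Cd3e (right), with limma 95% confidence intervals. Filled symbols have an adjusted p under 0.05, and dashed lines mark the median of all tested genes, -0.24 on the left and -3.17 on the right. The intervals on the right are too narrow, because the spread of Cd3e is counted in every gene.

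In order of level, treated libraries had Tcf7 first at 90.5 ± 58.0 TPM (SD, n = 3), then Lef1 (24.8 ± 16.5), Satb1 (17.6 ± 11.3), Zeb2 (15.9 ± 1.62), Eomes (15.7 ± 11.4), Tox (13.4 ± 11.0), Runx3 (12.7 ± 8.07), Tbx21 (8.71 ± 6.52), Bcl11b (7.49 ± 5.39) and Bach2 (3.34 ± 1.92). Neighbours in this order overlapped in range in every case, although Tcf7 exceeded Lef1, and Lef1 exceeded Satb1, in each of the 3 treated libraries. In control libraries Zeb2 came first at 17.7 ± 6.28 TPM (SD, n = 4), then Tcf7 at 16.1 ± 5.36, which overlapped it. Tcf7 lay above Runx3 (2.45 ± 0.747) without overlap, and the other 7, from Lef1 (2.13 ± 1.04) to Bcl11b (0.622 ± 0.190), overlapped with their neighbours. Tcf7 thus made up 34.9% to 47.2% of the summed TPM of the 10 in treated and 25.0% to 43.8% in control libraries, while Zeb2 made up 4.99% to 18.4% in treated and 27.7% to 54.1% in control libraries.

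Each transcript row of the table carries only a gene symbol, so isoforms cannot be named. For Tcf7 the highest of 3 rows held 89.1% to 91.1% of the TPM in treated and 86.4% to 89.7% in control libraries. Tbx21 had a single row. Satb1 was spread over 14 rows, of which 3 were listed at 0 everywhere. Its 2 highest rows differed in how they were listed in controls: the first had 9.12, 12.84 and 3.05 TPM in treated libraries, against 0.39, 0.93, 0.37 and 1.07 TPM in control libraries. The second had 6.51, 11.61 and 1.86 TPM in treated libraries, against 0, 0.55, 0 and 1.11 TPM in control libraries. A row at 0 can be a failed split of reads between isoforms as well as an absent isoform, and no fold change is given for it. Zeb2 was spread over 30 rows, the highest holding 42.4% to 45.9% of its TPM in treated and 33.0% to 39.1% in control libraries. With the highest row of each gene alone, 8 factors were again called higher and 0 lower. The median log2 fold change of all genes so tested was -0.27. On these rows Bcl11b reached 1 TPM in no control library, and Tbx21 and Satb1 only in control replicate 4 (1.07 TPM each). These genes needed treated libraries to pass the filter, and their calls on the highest row are not used as support.

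Set against Cd3e, which encodes the CD3 epsilon chain of the T cell receptor complex, 8 of the 10 factors were not called. Cd3e had 75.33, 172.68 and 43.17 TPM in treated libraries, against 13.07, 11.91, 5.47 and 11.61 TPM in control libraries. In limma on log2(TPM + 1) of each gene minus that of Cd3e, 0 factors were higher, also at an unadjusted p under 0.05, and 2 were lower, Bach2 and Zeb2. Of all 14966 genes so tested, 0.0134% were higher and 98.1% lower, so being lower relative to Cd3e is what nearly every gene did, and the count of 2 is far below that background. Of the T cell identity genes, 16 of 16 were not called. Because the Cd3e value enters every gene, the p-values of this fit are too small, and an exact permutation test over the 35 ways to choose 3 of 7 libraries, which cannot give a p below 0.0286, was added after the data were seen.

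Tbx21, Eomes, Bcl11b, Satb1 and Lef1 overlapped between the groups in TPM per 100 TPM of Cd3e. Eomes had 13.2, 16.7 and 19.2 in treated libraries, against 17.9, 14.9, 13.5 and 12.0 in control libraries, so the groups covered nearly the same range. Tbx21 was at 8.08, 9.35 and 9.06 in treated libraries, against 3.60, 5.54, 15.7 and 9.22 in control libraries. The treated libraries were close to each other, and all lay inside the control range. Satb1 had 24.9, 16.4 and 13.2 in treated libraries, against 8.80, 13.4, 22.9 and 22.2 in control libraries, and Bcl11b had 8.76, 7.68 and 6.05 in treated libraries, against 5.43, 3.27, 10.2 and 7.15 in control libraries. In both, the groups shared most of their range. Lef1 had 37.1, 22.9 and 16.2 in treated libraries, against 12.2, 16.8, 23.6 and 31.3 in control libraries, with the highest value in treated replicate 1. The relative log2 differences were -0.38 for Eomes, -0.66 for Tbx21 and -0.12 for Lef1, with two-sided exact permutation p of 0.114, 0.143 and 0.857. With a pseudocount of 0.1 these turned to 0.09, 0.11 and 0.23, as did Satb1 (from -0.32) and Bcl11b (from -0.74) to 0.09 and 0.12, so no direction relative to Cd3e can be given for these 5. The limma 95% confidence intervals, which are too narrow, still ran from -1.58 to 0.82 for Eomes and from -1.89 to 0.57 for Tbx21, so changes of this size relative to T cell content were not detectable.

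Tcf7, Tox and Runx3 had lower means relative to Cd3e in treated libraries. Tcf7 had 124, 85.2 and 72.1 TPM per 100 TPM of Cd3e in treated libraries, against 98.4, 137, 215 and 204 in control libraries. Treated replicate 1 lay above control replicate 1, and the relative log2 difference of -0.71 was not past the threshold (two-sided exact permutation p = 0.114). Runx3 had 13.2, 12.6 and 14.6 in treated libraries, against 16.2, 13.3, 59.8 and 24.3 in control libraries. Its difference of -1.07 had a two-sided exact permutation p of 0.0857, and control replicate 3 was again the highest. Tox had 10.2, 15.1 and 14.9 in treated libraries, against 16.8, 16.0, 15.0 and 12.5 in control libraries. Its difference of -0.68 reached the smallest exact permutation p of 0.0286 with a pseudocount of 1 and 0.286 with a pseudocount of 0.1, where the difference was -0.26.

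Bach2 and Zeb2 were the factors without overlap relative to Cd3e. Of all tested genes, 94.3% were likewise lower without overlap in TPM per TPM of Cd3e, and 0.0601% higher. Bach2 had 4.57, 3.01 and 3.17 TPM per 100 TPM of Cd3e in treated libraries, against 5.13, 5.46, 19.0 and 18.1 in control libraries. The treated values lay just below control replicates 1 and 2. Zeb2 had 18.7, 9.93 and 38.0 in treated libraries, against 144, 86.6, 466 and 141 in control libraries. The relative log2 differences were -1.94 for Bach2 and -3.01 for Zeb2, each with the smallest exact permutation p of 0.0286, and Bach2 had an exact permutation p of 0.0857 with a pseudocount of 0.1. With Cd3e as a covariate in place of a subtraction neither was called, and the Zeb2 value was 0.39 (limma adjusted p = 0.703).

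**Figure D3:**
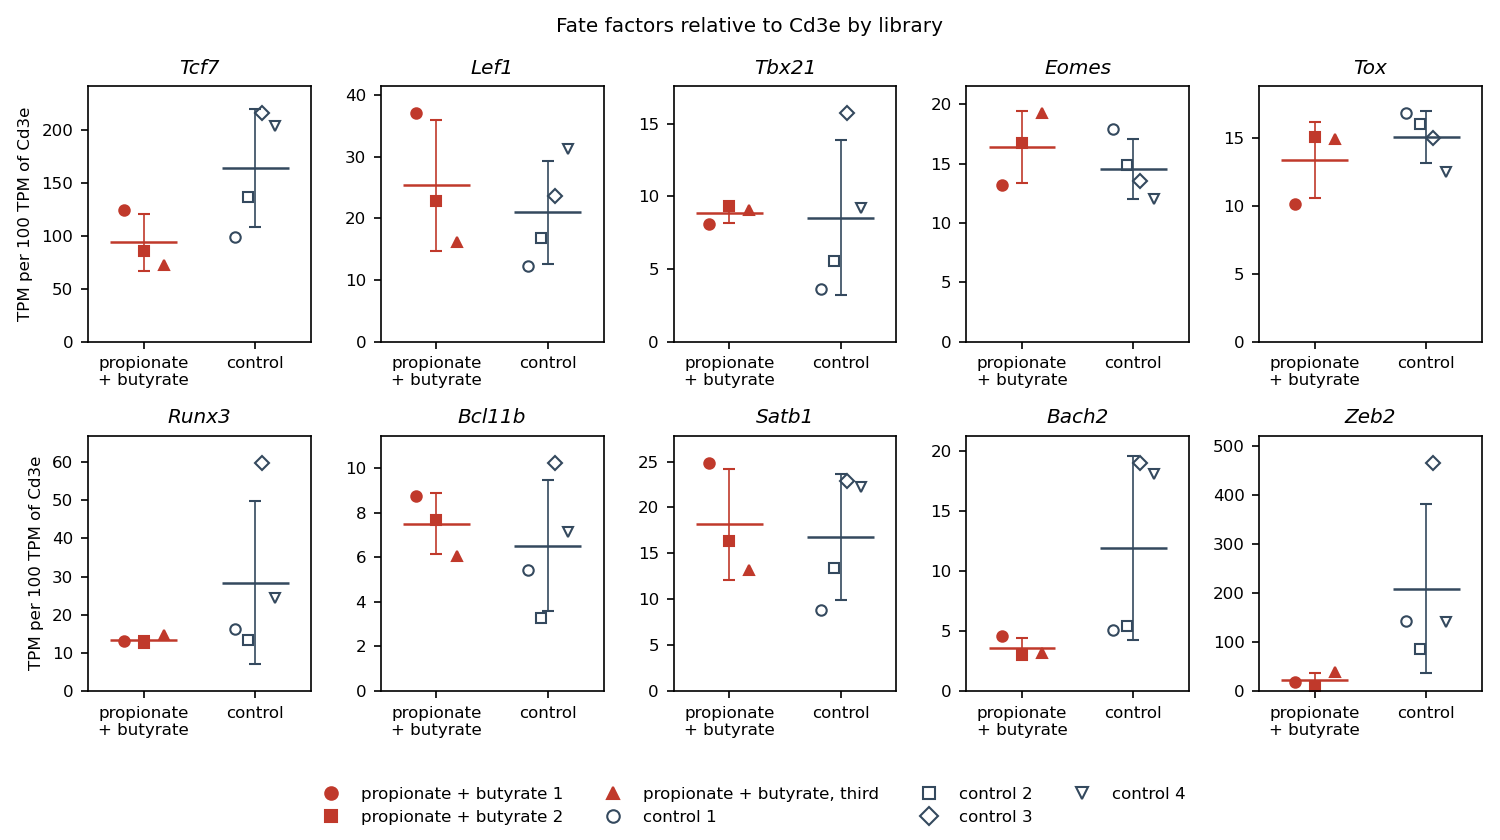
TPM of each factor per 100 TPM of Cd3e (vertical axis, from 0) in the 3 propionate and butyrate libraries (filled red) and the 4 control libraries (open), with group means and 1 SD. The groups overlap for 8 factors, and treated libraries lie below control libraries for Bach2 and Zeb2, as they do for 94.3% of all tested genes.

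The balance between factors was compared within libraries for 5 pairs, each by a two-sided exact permutation test with Benjamini-Hochberg adjustment over the 5. Lef1 per Tcf7 was the pair without overlap: it was 0.299, 0.269 and 0.225 in treated libraries, against 0.124, 0.123, 0.110 and 0.154 in control libraries. The difference in log2(TPM + 1) was 0.60 with an exact permutation p of 0.0286 and an adjusted p of 0.143, so it was not past the threshold, being 0.99 with a pseudocount of 0.1 and -0.10 with a pseudocount of 5. Tcf7 per Tbx21, a balance of memory and effector factors, was 15.3, 9.11 and 7.96 in treated libraries, against 27.4, 24.7, 13.7 and 22.1 in control libraries. Treated replicate 1 lay above control replicate 3, and the log2 difference of -0.06 had an exact permutation adjusted p of 0.857. It was -0.87 with a pseudocount of 0.1, closer to the ratios of TPM, and 0.83 with a pseudocount of 5, with exact permutation adjusted p of 0.19 and 0.214. Tcf7 per Tox was 12.2, 5.65 and 4.83 in treated libraries, against 5.85, 8.53, 14.4 and 16.3 in control libraries, with a difference of -0.04 and an exact permutation adjusted p of 0.857, being -0.51 with a pseudocount of 0.1 and 0.65 with a pseudocount of 5. Eomes per Tbx21 and Bach2 per Zeb2 differed by 0.28 and 1.07, with exact permutation adjusted p of 0.714 and 0.357. All but Bach2 per Zeb2 changed sign between pseudocounts of 0.1, 1 and 5.

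The treated libraries also differed among themselves by factor. Treated replicate 2 held 2.29 times the Cd3e of treated replicate 1. For Tox, Eomes and Tbx21 the same ratio was 3.40, 2.90 and 2.65, above that of Cd3e. For Tcf7, Lef1, Satb1 and Bach2 it was 1.57, 1.42, 1.51 and 1.51, below that of Cd3e, and for Runx3 and Bcl11b 2.19 and 2.01. These are values of single libraries with no replicate check. Against the third treated library the order was different, with 3.48 for Eomes, below the ratio of Cd3e, and 5.64 for Lef1, above it.

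Promoter windows are shown for 3 factors that were called higher and for Bach2, which was not, with the binding letters of the factors themselves marked. The motif to mark was set for each gene, and the first listed window that held it is shown. The windows were thus picked for a match and set up no contrast between called and not called factors. No window of Eomes, Bcl11b, Bach2 or Zeb2 held the ZEB letters. RefSeq (GRCm38.p6) gave 21 windows of 250 bases before to 50 after a start site for 9 of the 10 factors, and none was used for Tox; the study's build is mm39, and no coordinates were converted. Capitals mark CAGGTG or its reverse complement CACCTG, the E-box that ZEB proteins bind, in Tcf7, Lef1 and Tbx21, and TCAAAG, the reverse complement of the TCF/LEF letters CTTTGA, in Bach2.
Tcf7, chr11:52282546-52282845, minus strand: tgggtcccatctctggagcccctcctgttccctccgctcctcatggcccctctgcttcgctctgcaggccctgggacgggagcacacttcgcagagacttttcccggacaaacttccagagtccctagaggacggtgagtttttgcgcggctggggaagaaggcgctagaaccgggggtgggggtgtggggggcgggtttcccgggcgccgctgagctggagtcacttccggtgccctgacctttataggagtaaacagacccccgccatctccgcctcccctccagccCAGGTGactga
Lef1, chr3:131110073-131110372, plus strand: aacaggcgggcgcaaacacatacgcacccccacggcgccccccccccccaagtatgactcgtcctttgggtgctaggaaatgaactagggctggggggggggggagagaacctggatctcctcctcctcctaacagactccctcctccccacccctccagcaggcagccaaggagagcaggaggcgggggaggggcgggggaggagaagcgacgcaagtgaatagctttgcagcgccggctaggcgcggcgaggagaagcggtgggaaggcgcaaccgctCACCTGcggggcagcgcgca
Tbx21, chr11:97115282-97115581, minus strand: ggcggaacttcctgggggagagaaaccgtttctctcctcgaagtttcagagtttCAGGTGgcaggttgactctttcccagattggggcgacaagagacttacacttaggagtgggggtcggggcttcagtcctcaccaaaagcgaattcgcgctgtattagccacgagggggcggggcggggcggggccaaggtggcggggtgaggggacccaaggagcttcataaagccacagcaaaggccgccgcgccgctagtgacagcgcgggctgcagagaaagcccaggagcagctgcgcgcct
Bach2, chr4:32417185-32417484, plus strand: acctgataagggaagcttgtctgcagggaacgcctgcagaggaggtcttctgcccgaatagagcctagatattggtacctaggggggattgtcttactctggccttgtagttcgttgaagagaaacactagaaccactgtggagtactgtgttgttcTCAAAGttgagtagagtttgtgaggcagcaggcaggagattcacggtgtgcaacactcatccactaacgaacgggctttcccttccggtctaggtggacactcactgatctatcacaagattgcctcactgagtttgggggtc

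The ZEB letters were found in 6 of the 21 windows, in Tcf7, Lef1, Tbx21, Runx3 and Satb1, which is 28.6% of them, beside 20.2% of all 32851 promoter windows. In Tcf7 the match began at base 40 after the start site, in Lef1 at base 31 after it and in Tbx21 at position -196, counted back from it. CTTTGA or TCAAAG was found in 3 windows, of Bcl11b, Bach2 and another start site of Lef1 (14.3%, beside 16.0% of all windows), and the RUNX letters TGTGGT or ACCACA in 1 window, of Runx3 (4.76%, beside 16.8%). The T-box letters GGTGTGA or TCACACC were found in 0 of the 21 (beside 3.98%). No match overlapped one of another motif. A match describes letters and not binding, and none of these shares was tested.

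Other transcription factors with a known part in CD8 fate were mixed. Of 34 on the list, 30 were tested, and 11 were called higher and 0 lower by limma, with 14 higher and 1 lower at an unadjusted p under 0.05. The median log2 fold change was 0.53, beside -0.24 over all tested genes, of which 4.3% were called higher and 7.59% lower. Ikzf3 and Ikzf1, Ikaros-family zinc finger proteins of lymphocytes, were higher by 2.44 and 1.99, Ets1, a lymphocyte ETS factor, by 2.23, and Stat4, which carries the interleukin 12 signal, by 2.18. Myb, which keeps stem-like cells, and Id2, a partner of effector differentiation, were higher by 1.91 and 1.80. Myb had 3.43, 8.58 and 1.66 TPM in treated libraries, against 0.32, 0.16, 0.15 and 0.55 TPM in control libraries, so it too passed the filter only through the treated group, and 10 of the list were called higher without it. The limma adjusted p of these 6 ranged from 0.000564 for Ikzf3 to 0.00352 for Id2. Prdm1 and Gfi1, counted among those called higher without Myb, reached 1 TPM in control replicate 3 alone among the controls (1.29 and 1.01 TPM). They too needed treated libraries to pass. Id3, the memory counterpart of Id2, had 11.24, 7.44 and 5.44 TPM in treated libraries, against 8.69, 12.22, 5.93 and 10.93 TPM in control libraries, with a log2 fold change of -0.22 (limma adjusted p = 0.612, named after its value was seen). Relative to Cd3e 0 of the 30 were higher, also at an unadjusted p under 0.05, and 23 were lower by limma.

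Paralogues of the 10, relatives that share a DNA-binding domain, were not called. Of 14 listed, 10 were tested and 0 were called in either direction by limma, with 1 higher (Bcl11a) and 1 lower (Tcf7l1) at an unadjusted p under 0.05. Their median log2 fold change was -0.12. Tcf7l2, the TCF protein of epithelia, had 25.62, 16.78 and 14.07 TPM in treated libraries, against 26.15, 21.95, 26.51 and 26.41 TPM in control libraries. The value was -0.44 (limma adjusted p = 0.187), beside 2.21 for Tcf7. Tcf7l1 was at -0.66, Tbx2 at -0.40, Bach1 at -0.19 and Tox4 at -0.06, and Runx1 at 0.18, Zeb1 at 0.36, Runx2 at 0.62 and Bcl11a at 0.63, with limma adjusted p from 0.0671 for Tcf7l1 to 0.872 for Tox4. Tbx3, Tbr1, Tox2 and Tox3 were below the filter. Tox2, a partner of Tox in exhausted cells, reached 0.81, 3.47 and 0.91 TPM in treated libraries, against 0.42, 0.2, 0.17 and 0.14 TPM in control libraries, so its groups did not overlap, and Tbx3, Tbr1 and Tox3 stayed at or below 0.06 TPM.

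Genes that these factors are known to regulate were mostly higher. Of 26 listed, 25 were tested, and 20 were called higher and 0 lower by limma, with 21 higher and 1 lower (S1pr5) at an unadjusted p under 0.05. Klrg1, one of the 20, and Itgae, which was not called, passed the filter only through the treated group, and 19 were called higher without them. Cd160, one of these 19, reached 1 TPM in control replicate 1 alone among the controls (1.23 TPM), so it needed treated libraries to pass. The median of the list was 2.12. Of all tested genes, 4.3% were called higher, with a median of -0.24. The T cell identity genes rose more, 17 of 17 being called higher with a median of 2.84. Whether the listed genes rose through these factors was not tested. Il7r, the interleukin 7 receptor chain that memory cells need, was higher by 2.98, the effector genes Ifng, Gzma, Ccl5 and Gzmb by 2.79, 2.28, 2.89 and 2.96, and Cd27, a costimulatory receptor of memory cells, by 2.52. Their limma adjusted p ranged from 0.000277 for Ifng to 0.000955 for Cd27. S1pr5, an exit receptor that T-bet supports in effector and natural killer cells, had 6.33, 5.62 and 4.5 TPM in treated libraries, against 8.07, 9.93, 8.97 and 7.66 TPM in control libraries, a value of -0.58 (limma adjusted p = 0.0856, named after its value was seen). Cx3cr1, a fractalkine receptor of terminal effector cells and macrophages, was at 0.28 (limma adjusted p = 0.334, named after its value was seen). Relative to Cd3e 0 of the 25 were higher, also at an unadjusted p under 0.05, and 8 were lower by limma.

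**Figure D4:**
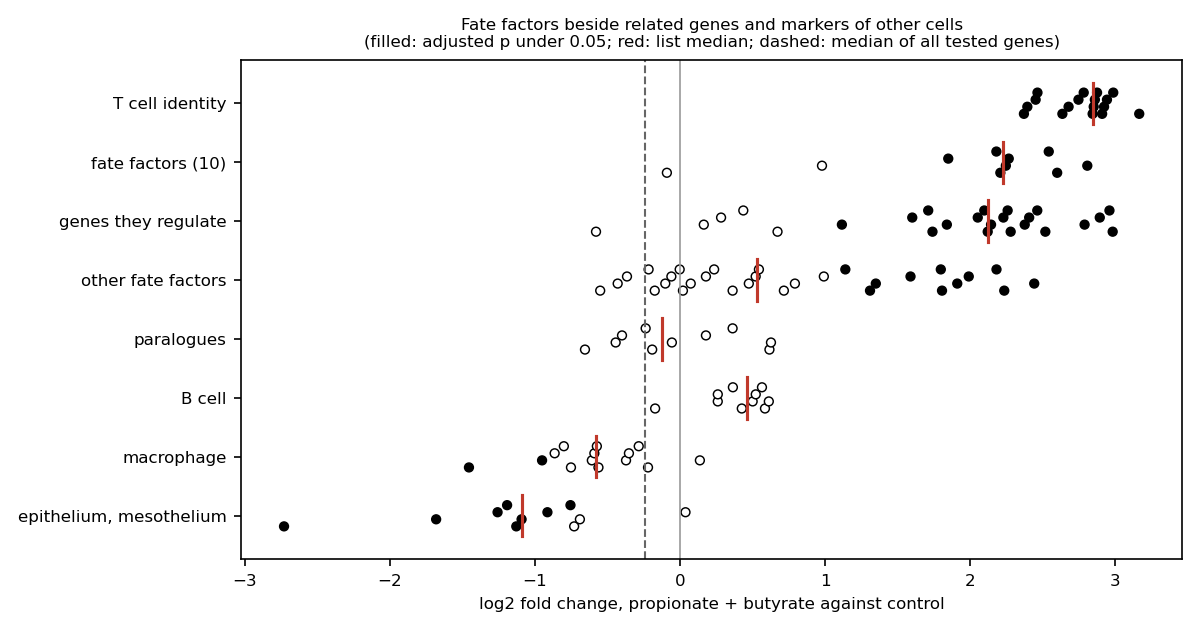
Log2 fold change of each tested gene, propionate and butyrate against control (horizontal axis), by gene list, with filled symbols for an adjusted p under 0.05, red bars for list medians and a dashed line for the median of all tested genes, -0.24. The 10 factors have a median of 2.23, between the T cell identity genes at 2.84 and the paralogues at -0.12. The median of the 10 includes Bcl11b, Tbx21 and Bach2, which needed treated libraries to pass the filter.

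The genes whose profile over the 7 libraries was most like that of each factor were found as the smallest Euclidean distance between mean-centred log2(TPM + 1) values. For Tbx21 they were Ets1 (0.28), Cxcr3 (0.34), a chemokine receptor, and Crtam (0.34), an adhesion receptor. For Tox they were Cxcr6 (0.28), Sytl3 (0.33) and Fasl (0.36), and Cxcr6 (0.38) was also nearest to Eomes. For Tcf7 they were Ifngas1 (0.37), Fam169b (0.44) and Slc28a2b (0.45). Nsg2 was nearest to both Lef1 (0.36) and Satb1 (0.28). Rhoh (0.19) was nearest to Runx3, Rasal3 (0.25) to Bcl11b and Chd7 (0.35) to Bach2. For Zeb2 they were Lmo2 (0.19), Olfm1 (0.21) and Fmnl2 (0.25).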

How the data were processed

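Per the labels' protocols, poly(A) RNA from TRIzol extracts was made into stranded libraries. The submitters' processing notes name fastp, HISAT2, StringTie and the build mm39, without versions or roles. The authors deposited TPM for 149132 transcript rows. No source used here says which program made these values. TPM carries no depth, so no counting interval could be computed.

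TPM was summed over rows per symbol, leaving out 1001 rows without a symbol (0.307% to 0.618% of TPM). Columns were matched to samples by name. Genes reaching 1 TPM in 3 or more libraries (14967) were compared on log2(TPM + 1) with limma 3.58.1 in R 4.3.3, using an intensity trend and Benjamini-Hochberg adjustment at 0.05, and again after subtracting log2(Cd3e + 1) of the same library. There the pooled spread is that of Cd3e, so p-values are too small. Ratios were compared by exact permutation tests over 35 splits. The fit was tested on simulated data.

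The members, lists and tests were chosen with earlier results of these data known. Named genes were the 10 factors, all paralogues, the 6 genes with the smallest p of each other list, and the 3 nearest genes in profile (receptor segments and unnamed gene models left out), with others marked where named and 1 result not reported here. Alternatives changed the pseudocount, filter, scaling, variance model, weights, reference and libraries. The sample numbers shared by the groups are not said to mark pairs.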

Additional observations from a re-analysis of the deposited data

Results flagged for a closer look

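Among 22 sets of 4 control values that were examined (the levels of the 10 factors, Cd3e and Cd8a, and the factors per 100 TPM of Cd3e), 1 held a library far from the others. Zeb2 in control replicate 3 was at 466 TPM per 100 TPM of Cd3e, against 86.6 to 144 in the other 3 control libraries. Chance alone places about 1 in 20 such sets past this limit. That library also had the highest macrophage sum, and Cd3e was lowest there, at 5.47 TPM, and the part of either in the Zeb2 value was not tested.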

How the results depend on the processing

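Against control, 8 or 9 factors were higher and 0 lower without any 1 library, and 8 higher without both control replicate 3 and the third treated library, an alternative chosen after seeing the data. The counts of factors here include Bcl11b, Tbx21 and, where it was called, Bach2. These needed treated libraries to pass the filter, so their calls are not used as support. Tcf7, Lef1, Eomes, Tox, Runx3 and Satb1 were called higher without any 1 library. With no filter on low values 0 factors were higher, and over all genes 3 were higher and 4 lower. Over all genes, 1306 were higher with median-of-ratios scaling, 1918 lower with mitochondrially encoded genes removed, 2246 higher and 4221 lower with array weights, and 277 lower without control replicate 3 and the third treated library. Leaving out 1 library at a time gave 433 to 834 genes higher and 531 (without treated replicate 2) to 2910 (without treated replicate 1) lower, so the count of lower genes rests on single libraries. With the replicate block, fitted on numbers 1 and 2 of each group, 9 factors were called higher, Bach2 at 1.66 (limma adjusted p = 0.0316), and 138 genes lower. Bach2 was also called higher with robust variance estimation, which ended the call of Tcf7, with median-of-ratios scaling and with array weights (limma adjusted p of 0.0315, 0.0433 and 0.0036). Same-numbered libraries did not deviate together (correlations of -0.0195 and -0.0896).

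Relative to Cd3e, the count of lower factors was 6 with a pseudocount of 5, 8 with array weights, 1 of 7 tested with a filter of 5 TPM, 1 with the replicate block and 0 with Cd3e as a covariate, and it was 2 without any 1 library. With array weights 1 factor was higher, Lef1 at 0.42, and with the covariate Zeb2 was at 0.39. Over all genes, 12 were higher with a pseudocount of 0.1, 0 with 5, 33 with array weights, 4 with the covariate and 0 to 5 without 1 library. Lower were 29391 with no filter, which tests more genes, and 8 with the covariate. The cause of the other changes was not tested. Depth is unknown, and 3 against 4 libraries limit the precision.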
